A study of Mus musculus with 11 samples.

Results

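Albumin and 8 other abundant carrier and binding proteins of blood plasma were followed through ribosome footprints of mouse liver. The 9 genes were taken by Ensembl gene identifier from a fixed list that names them Alb (ENSMUSG00000029368), Afm (ENSMUSG00000029369), Gc (ENSMUSG00000035540), Trf (ENSMUSG00000032554), Ttr (ENSMUSG00000061808), Rbp4 (ENSMUSG00000024990), Ahsg (ENSMUSG00000022868), Hpx (ENSMUSG00000030895) and Ambp (ENSMUSG00000028356). All 9 were found among the 22019 genes of the count table, and all 9 passed the count filter of every test. Livers came from male WT mice on a High Fat High Sugar (HFHS) diet or on Chow Diet, with no other treatment. RNase I digestion left footprints, the stretches of mRNA covered by ribosomes. Footprints of about 60 nt come from disomes, pairs of ribosomes packed against each other, and those of about 30 nt from monosomes, single ribosomes. The disome libraries numbered 2 HFHS and 3 chow, and the monosome libraries 3 HFHS and 3 chow. Each library is named by the barcode in its column name, since the columns carry no replicate number. Nothing in the labels ties a library to a separate animal, and the spread behind each p-value is that among these libraries, which may be technical.

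The liver makes nearly all of these proteins and sends them into the blood through the secretory pathway, which ribosomes enter while the chain is still growing. Each carrier holds a ligand that dissolves poorly or is harmful when free, such as fatty acids, iron, haem, retinol, thyroid hormone or vitamin D. Disomes arise where a trailing ribosome runs into a slow or halted one, so a gene's disome share set against its monosome share is a relative measure of stacked ribosomes on its coding sequence. The study's title concerns impaired translation and the kinase ZAK, which responds to collided ribosomes.

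Alb, Afm and Gc belong to 1 gene family on chromosome 5, and their promoters are shown because the family holds both the gene with the most counts and the gene with the fewest counts of the 9. A table of promoters (build GRCm38.p6) held 7 of the 9 symbols, all but Trf and Ttr. Each promoter reached from 250 bases before to 50 bases after the annotated gene start. Capitals mark GTTAATNAT, the first part of the site bound by HNF1, a transcription factor of liver; N is any base and both strands were searched.
Alb, chr5:90460620-90460919, plus strand: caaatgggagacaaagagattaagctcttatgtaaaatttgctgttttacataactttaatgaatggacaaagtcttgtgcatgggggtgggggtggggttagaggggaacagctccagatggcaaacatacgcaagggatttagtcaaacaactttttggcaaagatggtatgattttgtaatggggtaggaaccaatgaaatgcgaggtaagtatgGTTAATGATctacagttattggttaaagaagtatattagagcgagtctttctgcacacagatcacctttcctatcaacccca
Afm, chr5:90518699-90518998, plus strand: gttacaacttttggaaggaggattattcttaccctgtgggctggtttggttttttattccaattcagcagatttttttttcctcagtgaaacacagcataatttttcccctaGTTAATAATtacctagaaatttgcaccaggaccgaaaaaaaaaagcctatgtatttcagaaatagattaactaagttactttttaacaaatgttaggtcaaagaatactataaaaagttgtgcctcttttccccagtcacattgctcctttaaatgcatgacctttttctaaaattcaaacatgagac
Gc, chr5:89457849-89458148, minus strand: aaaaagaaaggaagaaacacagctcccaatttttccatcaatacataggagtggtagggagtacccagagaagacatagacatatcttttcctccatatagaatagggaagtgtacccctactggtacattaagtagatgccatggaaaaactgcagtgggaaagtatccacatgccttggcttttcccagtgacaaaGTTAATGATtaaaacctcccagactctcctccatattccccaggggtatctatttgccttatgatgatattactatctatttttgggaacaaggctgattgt
The short form was chosen after these sequences had been read, so its matches in them are a description and not a test. It occurred once in each of the 3 promoters and in none of the other 4, against 0.801% of 32851 promoters in the table. Counted from the gene start, it began at -32 in Alb, -138 in Afm and -52 in Gc. The full HNF1 site occurred in 0 of the 7 promoters and in 3 of the 32851. The letters CCAAT occurred in 7 of the 7 promoters, against 37.4% of the table, and the letters TATAAA in 2 (Afm and Rbp4), against 13.6%. A match describes letters only, and the footprint counts hold no measure of factor binding.

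The HFHS libraries held 235748 and 238837 counts in disomes, against 147212 to 279331 in chow disomes, and 1196240 to 1612324 in monosomes, against 795145 to 1248781 in chow monosomes. Alb, the defining secretory product of hepatocytes, had more counts than any other gene in all 11 libraries. The chow libraries of barcode AGCTA stood apart. Correlations were taken over 1726 genes with a mean of at least 50 CPM (counts scaled by library size) in both footprint classes. These means include AGCTA, so genes high only there could be among them. The AGCTA libraries correlated with the other chow libraries at r = 0.80 and 0.81 in monosomes and at 0.77 in disomes. ATCGT and CGTAA correlated at 0.98 in monosomes and 0.97 in disomes. A set of 30 genes, none of them among the 9, was picked for high AGCTA monosome levels. The rule asked for more than 20 CPM and more than 8 times the other monosome libraries. These genes took 4.15% of the monosome counts and 3.97% of the disome counts of AGCTA. In any other library they took at most 0.0376%. The monosome contrast of AGCTA therefore follows from the choice of genes. Without both libraries of this barcode the chow comparison of disomes with monosomes gave the counts printed for it, 7 genes lower and 1 higher, and the diet comparisons without the AGCTA library of their class gave 0. Other markers of liver or of further cell types were not analysed here, because the table pairs no identifier with a name.

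The 9 genes together took a smaller part of disome footprints than of monosome footprints. In HFHS livers they took 7.09% (CTAGA) and 6.98% (GCATA) of disome counts, against 15.0%, 14.8% and 15.3% of monosome counts. In chow livers they took 7.32% (AGCTA), 7.35% (ATCGT) and 6.94% (CGTAA) of disome counts, against 14.7%, 16.0% and 15.5% of monosome counts. Disome and monosome libraries did not overlap. Set against the monosome library of the same barcode, the summed share in disomes was 0.447 to 0.499 times as large over the 5 barcodes. For the 8 genes without Alb this ratio was 0.552 to 0.664.

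In HFHS livers 8 of the 9 genes were lower and 1 was higher in disomes than in monosomes at an adjusted p below 0.05 (edgeR's quasi-likelihood test, Benjamini-Hochberg over 7437 genes), where 13.6% of all genes tested were called lower, 11.5% higher and 25.1% in either direction. In chow livers 7 were lower and 1 higher, where 23.3% of the 4713 genes tested were lower, 21.6% higher and 44.9% either. The background is larger among genes with more counts. In the HFHS disome libraries 2624 (CTAGA) and 2497 (GCATA) genes had at least 10 counts, so many of the 7437 genes tested had few disome counts. The HFHS percentages are therefore no like-for-like background for genes with many counts. With a minimum count of 50 in chow, 7 of the 9 were again lower and 1 higher, where 486 of 1436 genes were lower and 412 higher. More than 2-fold lower were 5 of the 9 in HFHS, where 10.8% of all genes were, and 6 in chow, where 16.3% were. In HFHS the disome libraries all lay below the monosome libraries for 8 of the 9 genes (31.5% of all genes) and above them for 1 (26.7%), together 58.3% of all genes. In chow they lay below for 7 (27.9%) and above for 1 (25.9%), together 53.7%. The median log2 ratio of the 9 genes was -1.38 in HFHS livers and -1.36 in chow livers, against -0.07 and -0.01 over all genes tested. These ratios are relative to the average gene, and the classes were sequenced from different libraries, so that a difference in library preparation and one in footprint class cannot be told apart.

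Ttr, the tetrameric carrier of thyroxine and of the retinol-binding protein, was the exception. It took 1.85% and 1.57% of HFHS disome counts, against 1.01%, 1.15% and 0.835% of HFHS monosome counts. In chow it took 1.97%, 1.77% and 1.59% of disome counts, against 1.05%, 0.926% and 1.04% of monosome counts. Every disome library lay above every monosome library. The log2 ratio was 0.66 ± 0.12 (SE) in HFHS livers (edgeR adjusted p = 0.000153) and 0.74 ± 0.11 in chow livers (adjusted p = 4.46e-07), or 1.57-fold and 1.67-fold higher. Of all genes tested, 77.7% in HFHS and 80.0% in chow had a lower ratio than Ttr.

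Alb, the main carrier of fatty acids and the protein that sets most of the oncotic pressure of plasma, was among the genes that fell. It took 3.07% and 3.16% of HFHS disome counts, against 8.93%, 8.71% and 9.34% of HFHS monosome counts. In chow it took 3.27%, 3.27% and 3.17% of disome counts, against 8.40%, 9.34% and 8.71% of monosome counts. The exact 95% binomial interval of these shares, which covers counting error only, reached from 8.34% to 8.46% in the shallowest monosome library and from 3.18% to 3.36% in the shallowest disome library. The groups were far apart, with a log2 ratio of -1.65 ± 0.10 in HFHS livers (adjusted p = 9.68e-13) and -1.53 ± 0.09 in chow livers (adjusted p = 3.18e-17), or 3.13-fold and 2.90-fold lower in disomes.

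**Figure D1:**
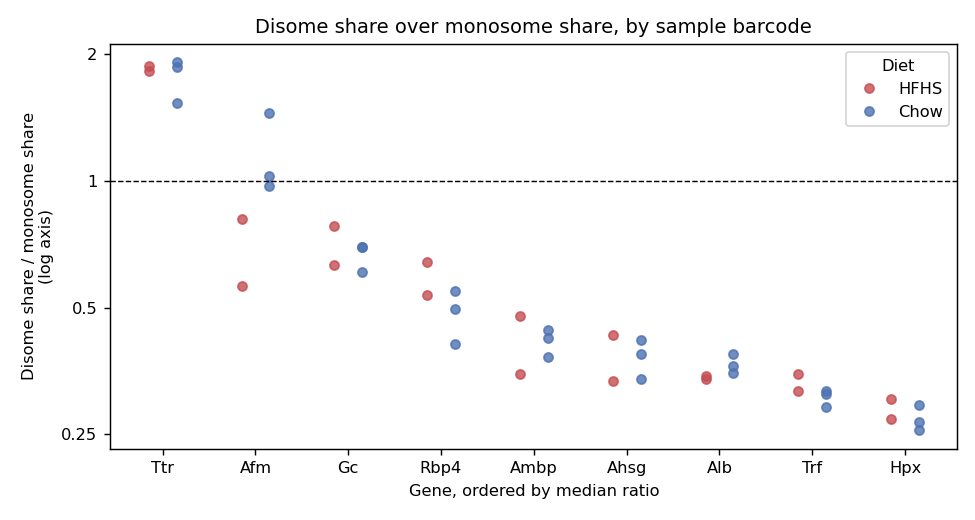
Disome share of library counts divided by the monosome share of the same barcode (log axis) for each gene, with genes ordered by the median; points are the 2 HFHS and the 3 chow barcodes, and the dashed line marks equal shares. Ttr lies between 1.54 and 1.92 and Hpx between 0.256 and 0.303, while Afm lies on both sides of 1.

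Because this ratio compares a gene with itself, coding length drops out of it, and the genes could be ordered. Ttr stood first in all 5 barcodes, with ratios of 1.54 to 1.92, and Hpx stood last in all 5, with 0.256 to 0.303. Rbp4 held place 4 in all 5, with 0.411 to 0.643. Afm (0.563 to 1.45) and Gc (0.609 to 0.782) exchanged places 2 and 3. Ambp (0.348 to 0.478), Ahsg (0.335 to 0.432) and Alb (0.338 to 0.389) overlapped and took places 5 to 8, and Trf (0.291 to 0.348) took places 7 and 8. Within a barcode Ambp lay above Alb in 5 of 5, by as little as 0.348 against 0.338 in GCATA. Ahsg changed places with both Ambp and Alb between barcodes.

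Hpx and Trf, the carriers of haem and iron, lay at the low end, and Alb lay close to Trf. In HFHS Alb had a log2 ratio of -1.65, and in barcode CTAGA its ratio of shares stood below that of Trf (0.344 against 0.348). Hpx, hemopexin, which binds free haem with high affinity, took 0.198% and 0.181% of HFHS disome counts, against 0.654%, 0.770% and 0.663% of HFHS monosome counts. Its chow values were 0.173%, 0.211% and 0.219% in disomes, against 0.677%, 0.718% and 0.819% in monosomes. The classes did not overlap, with 3.98-fold lower levels in HFHS disomes (log2 ratio -1.99 ± 0.13, adjusted p = 1.74e-12) and 3.89-fold lower levels in chow disomes (-1.96 ± 0.12, adjusted p = 2.86e-16). Trf, transferrin, the iron carrier of plasma, took 0.697% and 0.631% of HFHS disome counts and 0.617%, 0.771% and 0.721% of chow disome counts, against 1.81% to 2.00% of HFHS monosome counts and 2.12% to 2.43% of chow monosome counts. It was 3.16-fold lower in HFHS disomes (-1.66 ± 0.12, adjusted p = 7.58e-12) and 3.46-fold lower in chow disomes (-1.79 ± 0.11, adjusted p = 7.17e-17).

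Ahsg, Ambp, Rbp4 and Gc fell by less than Hpx and Trf, while Ahsg lay close to Alb (-1.49 against -1.53 in chow). Ahsg took 0.266% and 0.214% of HFHS disome counts and 0.279% to 0.309% of chow disome counts, against 0.615% to 0.640% of HFHS monosome counts and 0.681% to 0.825% of chow monosome counts. Ahsg, fetuin-A, which keeps calcium phosphate in solution, had log2 ratios of -1.51 ± 0.13 in HFHS and -1.49 ± 0.11 in chow. Ambp, the precursor that is cleaved into alpha-1-microglobulin and bikunin, had -1.38 ± 0.14 and -1.36 ± 0.13 in the same order. Rbp4, the plasma carrier of retinol, had -0.91 ± 0.13 in HFHS and -1.14 ± 0.12 in chow, and took 0.365% and 0.445% of HFHS disome counts, against 0.680%, 0.732% and 0.692% of HFHS monosome counts. All 6 of these log2 ratios passed the threshold (largest adjusted p = 2e-06). Gc, the vitamin D-binding protein that also captures actin, had -0.57 ± 0.13 in HFHS (adjusted p = 0.00119) and -0.67 ± 0.11 in chow (adjusted p = 8.35e-06). Without the HFHS disome library CTAGA the HFHS value of Gc was -0.40 and missed the threshold (adjusted p = 0.0586).

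Afm, afamin, a vitamin E-binding relative of Alb in human plasma, rested on far fewer counts. Its disome counts were 40 and 58 in HFHS and 34, 78 and 103 in chow, against 417, 313 and 481 in HFHS monosomes and 179, 409 and 261 in chow monosomes. As a share of the library, chow disomes (0.0231%, 0.0318% and 0.0369%) and chow monosomes (0.0225%, 0.0328% and 0.0255%) overlapped, and the log2 ratio of 0.12 ± 0.17 did not pass the test (adjusted p = 0.594, 95% interval -0.22 to 0.46). In HFHS livers Afm took 0.0170% and 0.0243% of disome counts, against 0.0301%, 0.0262% and 0.0298% of monosome counts. That log2 ratio was -0.59 ± 0.20 (adjusted p = 0.0257). The HFHS call was lost without the disome library CTAGA (-0.36, adjusted p = 0.334), without the monosome libraries CTAGA (-0.53, adjusted p = 0.0748) or GCATA (-0.53, adjusted p = 0.0671), with DESeq2 (-0.59, adjusted p = 0.063) and with library totals in place of TMM factors (-0.48, adjusted p = 0.0704).

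**Figure D2:**
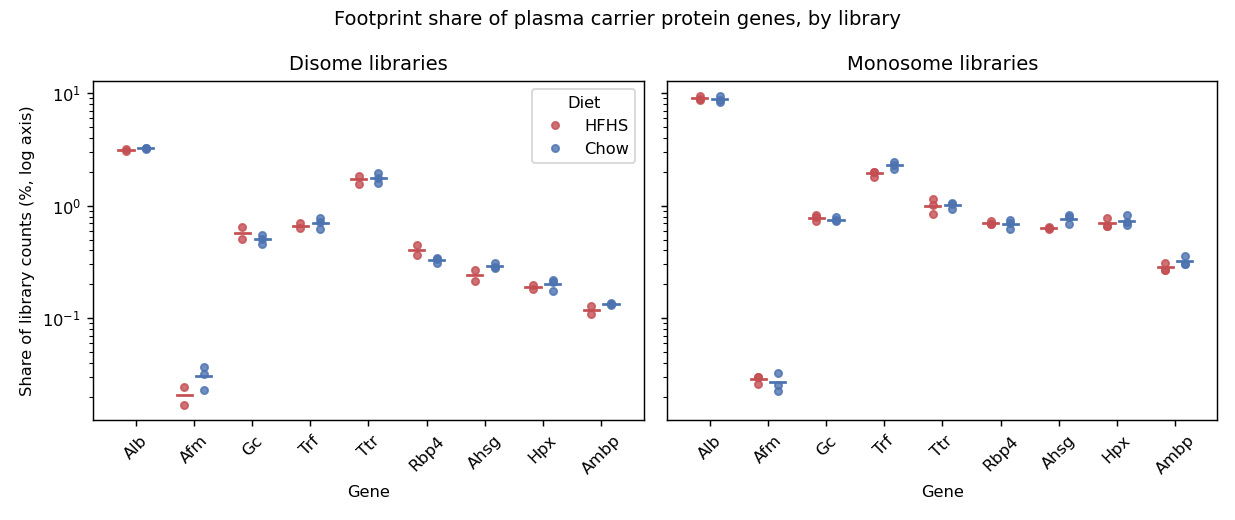
Share of library counts (%, log axis) of each gene in disome libraries (left) and monosome libraries (right); points are libraries, colour is diet and short lines are group means. Counts are not divided by coding length, so heights compare libraries for 1 gene, not genes with each other.

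The makeup of the 9 genes' own counts does not depend on how library totals are scaled. Alb supplied 43.3% and 45.3% of them in HFHS disomes and 44.4% to 45.6% in chow disomes, against 58.7% to 61.0% in HFHS monosomes and 56.0% to 58.4% in chow monosomes. Ttr supplied 26.1% and 22.5% in HFHS disomes and 23.0% to 26.9% in chow disomes, against 5.45% to 7.77% in HFHS monosomes and 5.79% to 7.17% in chow monosomes. For every 100 Alb counts there were 60.2 and 49.8 Ttr counts in HFHS disomes and 50.3 to 60.3 in chow disomes. In monosomes there were 8.94 to 13.2 in HFHS and 9.92 to 12.5 in chow. The classes were separate in both diets for Alb and for Ttr. The diets overlapped within each class for Ttr and in disomes for Alb. The Alb part of the 9 genes' monosome counts was higher in all 3 HFHS libraries (58.7% at the lowest) than in the 3 chow libraries (58.4% at the highest). How often such a narrow separation occurs among other genes was not tested.

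Ttr and Rbp4 travel in plasma as 1 complex, which keeps the small retinol carrier from being filtered by the kidney. For every 100 Ttr counts there were 19.8 and 28.3 Rbp4 counts in HFHS disomes, against 67.2, 63.4 and 82.9 in HFHS monosomes. In chow there were 17.6, 19.0 and 19.3 in disomes, against 66.3, 66.4 and 72.2 in monosomes. The disome values lay below the monosome values in both diets. Both HFHS disome values lay above the 3 chow disome values, by 19.8 against 19.3 at the closest. How often other gene pairs lie apart between the diets in this way was not tested.

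**Figure D3:**
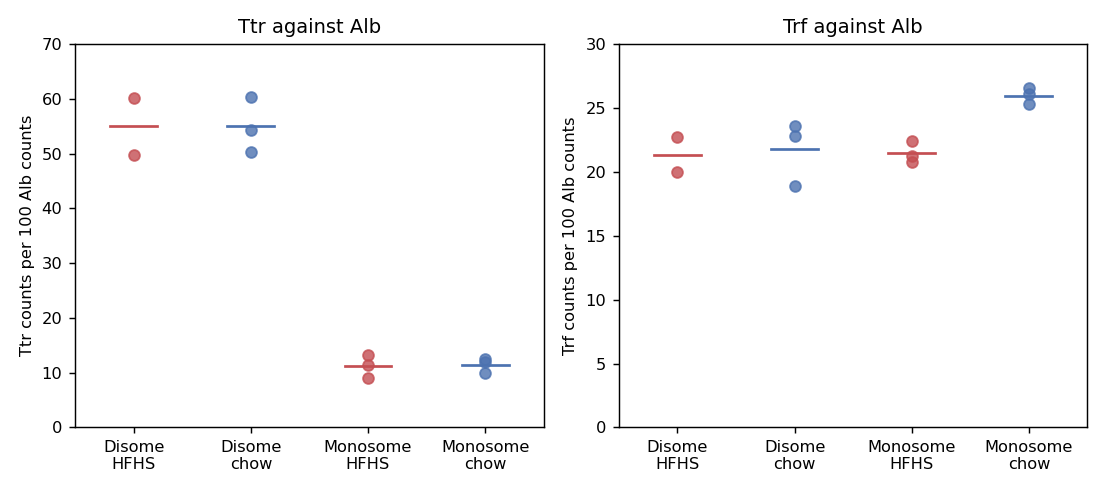
Counts of Ttr (left) and Trf (right) for every 100 Alb counts of the same library, from 0; points are libraries and short lines are group means. Ttr is at 49.8 to 60.3 in disomes and 8.94 to 13.2 in monosomes. Trf is lower in HFHS monosomes (20.7 to 22.4) than in chow monosomes (25.3 to 26.6). The diet difference of Trf in monosomes missed the threshold (edgeR adjusted p = 0.104), and the share of all genes apart on this scale was not computed.

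The diet comparison asked whether footprints on these genes changed with HFHS feeding. In monosomes 0 of the 9 genes passed the threshold with edgeR or with DESeq2, where edgeR called 3.02% of 6754 genes higher and 1.63% lower (4.65% either way). An unadjusted p below 0.05 was found for 2 of the 9 and for 16.9% of all genes. In disomes 0 of the 9 passed with either tool, where edgeR called 1.82% of 2804 genes higher and 1.14% lower (2.96% either way). There an unadjusted p below 0.05 was found for 1 of the 9 and for 13.4% of all genes. The libraries hold no measure of mRNA, and in whole liver fewer cells of a type and less RNA per cell cannot be told apart. The median log2 fold change of the 9 genes was 0.03 in monosomes and -0.09 in disomes, against -0.02 and -0.03 over all genes tested.

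Alb showed a diet difference of 0.06 ± 0.06 on the log2 scale in monosomes (edgeR adjusted p = 0.637), with a 95% interval of -0.05 to 0.18 that was not adjusted for the number of genes. In disomes the difference was -0.07 ± 0.15 (adjusted p = 0.911, interval -0.36 to 0.23). Ttr had 0.03 ± 0.10 in monosomes (interval -0.17 to 0.23) and -0.07 ± 0.15 in disomes (interval -0.37 to 0.23). The intervals of both genes include 0 in both classes.

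Trf and Ahsg were the 2 genes whose HFHS monosome libraries all lay below the chow libraries, as did 10.6% of all genes tested. No overlap in either direction was seen for 21.6% of all genes. Trf took 2.00%, 1.81% and 1.99% of HFHS monosome counts, against 2.12%, 2.43% and 2.31% of chow counts. The log2 fold change was -0.21 ± 0.07 and missed the threshold (edgeR adjusted p = 0.104). Ahsg took 0.615%, 0.636% and 0.640% of HFHS counts, against 0.681%, 0.825% and 0.798% of chow counts, with a log2 fold change of -0.25 ± 0.09 (adjusted p = 0.106). With library totals in place of TMM factors both passed, at -0.25 (adjusted p = 0.0364) for Trf and -0.29 (adjusted p = 0.0478) for Ahsg.

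Counted against Alb, which needs no library scaling, both genes were apart in monosomes on this scale too. These are the same counts of the same libraries, so this is not separate evidence. The share of all genes that lie apart on this scale was not computed. For every 100 Alb counts there were 22.4, 20.7 and 21.3 Trf counts in HFHS monosomes, against 25.3, 26.1 and 26.6 in chow monosomes. Ahsg had 6.85 to 7.30 counts per 100 Alb counts in HFHS monosomes, against 8.11 to 9.16 in chow monosomes. In disomes both overlapped between the diets on this scale. Trf had 22.7 and 20.0 in HFHS disomes, against 18.9 to 23.6 in chow disomes, and Ahsg had 8.65 and 6.79 in HFHS disomes, against 8.53 to 9.75 in chow disomes.

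In disomes the diets did not overlap for Rbp4, which was higher in HFHS, nor for Ahsg and Ambp, which were lower. This held for shares of all counts and for CPM scaled by TMM. On the scaled CPM 14.3% of the genes tested lay apart upward and 13.9% downward (28.2% in all). There Rbp4 was apart by 3997 CPM (HFHS, CTAGA) against 3975 (chow, AGCTA) at the closest. Rbp4 took 0.365% and 0.445% of HFHS disome counts, against 0.346%, 0.337% and 0.308% of chow disome counts (log2 fold change 0.28 ± 0.16, edgeR adjusted p = 0.463). Ahsg had a log2 fold change of -0.29 ± 0.17 (adjusted p = 0.478) and Ambp one of -0.19 ± 0.17 (adjusted p = 0.711). Afm had the largest diet difference of the 9 in disomes, -0.60 ± 0.22, with the libraries overlapping (adjusted p = 0.113). None of these 4 differences passed the threshold. Their size turned on the 2 HFHS libraries. Without CTAGA the log2 fold change was -0.33 for Afm, 0.44 for Rbp4, -0.43 for Ahsg and -0.29 for Ambp. Without GCATA it was -0.87 for Afm, 0.13 for Rbp4, -0.15 for Ahsg and -0.073 for Ambp.

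**Figure D4:**
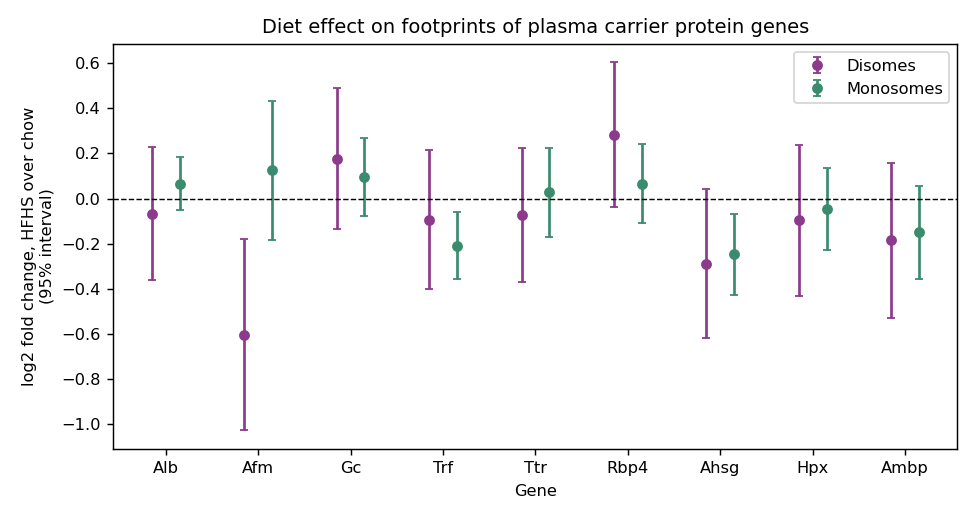
Diet effect as the log2 fold change of HFHS over chow for each gene in disomes and in monosomes; bars are 95% intervals of the edgeR fit, not adjusted for the number of genes. The monosome values lie between -0.25 and 0.13, and the widest disome departure is that of Afm at -0.60.

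Whether diet moved disomes differently from monosomes was tested in 1 model over all 11 libraries. Of the 9 genes 0 passed with edgeR or DESeq2, where 0% of 7236 genes were called with edgeR. The unadjusted p was below 0.05 for 1 of the 9 and for 4.95% of all genes. Afm had a difference of diet effects of -0.63 ± 0.28 on the log2 scale (adjusted p = 1, interval -1.18 to -0.07), and Rbp4 one of 0.31 ± 0.16 (adjusted p = 1, interval -0.0035 to 0.62). Alb and Ttr had -0.04 ± 0.10 (interval -0.24 to 0.15) and -0.01 ± 0.15 (interval -0.32 to 0.29). The remaining 5 genes lay between 0.04 and 0.20.

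The genes of most similar course to Alb were sought over the 11 libraries, as the Pearson correlation of log2(CPM + 1) centred within each footprint class, among 1726 genes with at least 50 CPM in both classes. Outside the 9 genes, ENSMUSG00000033860 (r = 0.95) and ENSMUSG00000031938 (r = 0.94) came first, and the sources used here give no name for either. Of the 8 other carriers, Gc had the highest value (r = 0.76, with 96.3% of the genes below it). Afm (r = 0.36) had 63.8% of the genes below it, Rbp4 (r = 0.28) 56.7% and Trf (r = 0.19) 49.8%, all near the middle of the genes compared. Hpx (r = 0.02), Ttr (r = -0.09), Ambp (r = -0.11) and Ahsg (r = -0.17) had 23.1% to 37.4% below them. The points share library depth and scaling, so these values are descriptions.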

How the data were processed

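The values deposited are counts of footprints assigned to coding sequences, given per gene as whole numbers without normalization. Per the labels' protocols, 200 mg of liver was lysed, footprints were cut from a gel run with 10 µg of RNA, and adaptors carried a barcode and an 8 nt molecular identifier. Cutadapt 3.5 and Bowtie2 appear in the submitters' processing notes; the build, the annotation, the counter and whether identifiers were collapsed are not given in the sources used. Columns were placed in their group by footprint class and diet. Disomes of HFHS replicate 2 were not analysed here.

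Shares are counts over the library total. Tests used edgeR 4.0.16 in R 4.3.3 on all genes: filterByExpr (minimum count 10), TMM, robust quasi-likelihood F-test, two-sided, adjusted p below 0.05. SE is the log2 change over the square root of F, and intervals use the fit's degrees of freedom. Levels and log2 changes are relative to the average gene. DESeq2 1.42.0, library totals, other filters, left-out libraries, a fit without Alb and the barcode as a block were the alternatives, and the edgeR scripts were tested on simulated data. The genes, lists and tests were chosen with earlier results of these data known. The named genes are the 9 members and the 2 genes most like Alb. Gene symbols come from the list that defined the members; 0 identifiers of the table were found in the RefSeq table (49997 genes), which holds all 9 symbols, so the marker and pathway lists, coding lengths and protein features could not be used. Counts per library set the precision, and binomial intervals cover counting error only. Same-barcode libraries of the 2 classes had deviations from their group means that correlated at r = 0.084 and 0.34 in HFHS (2 pairs) and 0.76 to 0.91 in chow (3 pairs). In HFHS the disomes of CTAGA reached 0.17 with the monosomes of GATCA, above the 0.084 with their own barcode. The 2 HFHS disome libraries deviate from their mean by opposite amounts, so the 2 pairs are not independent. In chow different barcodes gave 0.62 and 0.63 between ATCGT and CGTAA. Either of these against AGCTA gave -0.81 to -0.77, so AGCTA, which stood apart in both classes, weighs on the chow values. No label links barcodes to animals, so the pairing is only a reading of these values.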

Additional observations from a re-analysis of the deposited data

How the results depend on the processing

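The counts of the 9 genes called higher or lower stayed within 1.5 times of their main values under every alternative run, with 1 exception. Library totals without a TMM factor gave 2 genes called lower in HFHS monosomes. A band this wide hides lost calls in the HFHS comparison of disomes with monosomes. There Afm was called lower in 7 of 12 alternatives and Gc in 11 of 12. In the disome-to-monosome ratio, Ttr, Alb, Trf, Hpx, Ahsg, Ambp and Rbp4 kept direction and call in both diets under every alternative run. Afm was reversed in chow with no count filter (-0.074), and leaving out 1 library gave -0.047 to 0.23. With the barcode as a replicate block no call changed: the log2 ratio of Ttr was 0.77 in HFHS and 0.73 in chow, and its difference of diet effects was 0.12. Diet effects below the threshold changed sign in places. In monosomes Ttr was -0.015 with library totals and -0.015 with a minimum count of 50, and leaving out 1 library gave -0.081 to 0.15 for Ttr and -0.12 to 0.013 for Hpx. In disomes, with no filter Alb was 0.025 and Ttr 0.023, and with all 11 libraries in 1 fit Alb was 0.0075 and Ttr 0.0019; leaving out 1 library gave -0.18 to 0.036 for Ttr and -0.018 to 0.36 for Gc. For the difference of diet effects Hpx was -0.0030 with library totals, and without both AGCTA libraries Ttr was 0.022 and Hpx -0.0084. Leaving out 1 library gave -0.16 to 0.074 for Ttr, -0.11 to 0.15 for Ahsg, -0.057 to 0.094 for Hpx, -0.067 to 0.13 for Ambp and -0.065 to 0.34 for Gc. The cause of these shifts was not tested. The share of the 8 genes without Alb in a total without Alb was 6.65% in HFHS monosomes and 7.23% in chow monosomes, and in the whole total 6.06% and 6.59%. Over all genes, diet calls in disomes were 51 higher and 32 lower, against 16 and 10 with DESeq2, 36 and 21 with no filter, 51 and 21 with all 11 libraries in 1 fit and, leaving out 1 library, 20 to 32 and 18 to 26. In monosomes they were 204 higher and 110 lower, against 161 and 56 with DESeq2, 125 and 76 with a minimum count of 50, 131 and 76 without AGCTA and 85 and 57 without CGTAA. Without the HFHS monosome library CTAGA they were 140 and 68, and without GATCA 139 and 62. Disome calls against monosomes in HFHS were 854 higher and 1010 lower, against 629 and 611 with DESeq2. Leaving out the HFHS disomes of barcode CTAGA gave 425 and 555, and leaving out those of GCATA gave 461 and 613. In chow they were 1017 higher and 1097 lower of 4713 genes tested, against 412 and 486 of 1436 with a minimum count of 50. The difference of diet effects had 0 calls, against 7 lower, none of the 9 among them, with the barcode block. Afm rests on 34 to 103 disome counts per library, which limits what can be read from it.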
